A study of Mus musculus with 2 samples.

Results

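The genes described are 9 loci of the ETS transcription factor family and of Friend virus leukaemia, namely Spi1, Fli1, Trp53, Erg, Ets1, Ets2, Elf1, Gabpa and Etv6. They were chosen by name, out of 21535 protein-coding genes with a known strand, and every H3K4me3 peak over each gene span and the 20 kb upstream of it was taken. The cells were MEL, an immortalised mouse line of erythroleukaemia origin, kept in 2% DMSO (dimethyl sulphoxide) over 5 days and sampled as 2 biological replicates that form the single group of the series. DMSO is a textbook inducer of erythroid maturation in this line. MEL is 1 transformed line, and no untreated cells were analysed here, and so no value below is a change with DMSO.

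H3K4me3, histone H3 with 3 methyl groups on lysine 4, sits at gene starts that are active or poised and was mapped by ChIP-seq from fragments of 150 to 350 bp. ETS factors share a DNA-binding domain that recognises a GGAA core, and they differ in the bases they prefer beside it. PU.1, the product of Spi1, drives myeloid and B-cell development and has to fall for red cell maturation, while Fli1 and Erg act in megakaryocytes, endothelium and stem cells. In Friend disease, integration of the spleen focus-forming virus next to Spi1 or of the Friend murine leukaemia virus next to Fli1 activates these genes, and loss of Trp53 is a frequent later step. Peak lists hold no proviral sequence, so nothing below says where a virus is integrated.

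Each peak carries an enrichment value deposited by the authors, whose scale is not stated, and sequencing depth is unknown because the lists hold no read counts. Replicate 1 had 48026 peaks and replicate 2 had 46950 peaks, with median enrichment values of 5.51 and 5.31. A region is a run of overlapping or touching peaks of the replicates, and its value in a replicate is the highest peak in it. A gene was called marked when a peak of each replicate lay within 1000 bp of its 5' end, the outer end of its RefSeq span. Means are given ± SD with n = 2. Of all protein-coding genes 47.1% were marked, and of the 10 erythroid marker genes 9 were. These 9 had a median of 5.83, against 13.2 over all marked genes. The strongest were Klf1 at 20.7 and 21.3 and Alas2 at 20.9 and 15.0, while Hba-a1 had 5.61 and 4.25 and Hba-a2 a mean of 2.88 ± 0.181. Elsewhere over the gene span and 20 kb upstream, Hba-a1 had peaks of up to 9.22 and 12.3 and Hba-a2 of up to 17.1 and 14.2. Of the 6 myeloid markers 1 was marked, Lyz2, at values of 2.61 and 3.39, and of the 3 lymphoid markers 0 were. Of the 3 fibroblast markers 2 were marked, Pdgfrb and Col1a1.

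RefSeq promoter sequences on GRCm38.p6, the assembly behind mm10, were found for 6 of the 9 genes. The 6 printed here come from 5 genes. These are 4 marked genes, with both the outer and the inner promoter of Elf1, and Erg, whose outer promoter had no peak. The promoter of Ets2, also marked, and the inner ones of Erg are not printed. Each runs 5' to 3' on the gene's own strand, from 250 bases before to 50 bases after the start. Capitals mark each GGAA or, for the other strand, TTCC, the core that ETS factors recognise.
Trp53, chr11:69580109-69580408, plus strand: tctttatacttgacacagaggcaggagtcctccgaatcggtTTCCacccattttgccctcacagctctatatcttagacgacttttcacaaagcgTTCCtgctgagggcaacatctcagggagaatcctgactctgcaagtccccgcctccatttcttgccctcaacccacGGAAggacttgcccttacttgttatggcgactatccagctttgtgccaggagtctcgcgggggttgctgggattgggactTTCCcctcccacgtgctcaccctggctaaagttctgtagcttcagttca
Gabpa, chr16:84834874-84835173, plus strand: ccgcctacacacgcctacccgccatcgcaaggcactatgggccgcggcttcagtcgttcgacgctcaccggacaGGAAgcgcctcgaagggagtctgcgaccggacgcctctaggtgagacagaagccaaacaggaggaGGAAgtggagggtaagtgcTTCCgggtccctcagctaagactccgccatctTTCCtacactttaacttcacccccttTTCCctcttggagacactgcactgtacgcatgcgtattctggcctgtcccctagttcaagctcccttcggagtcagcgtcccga
Etv6, chr6:134035450-134035749, plus strand: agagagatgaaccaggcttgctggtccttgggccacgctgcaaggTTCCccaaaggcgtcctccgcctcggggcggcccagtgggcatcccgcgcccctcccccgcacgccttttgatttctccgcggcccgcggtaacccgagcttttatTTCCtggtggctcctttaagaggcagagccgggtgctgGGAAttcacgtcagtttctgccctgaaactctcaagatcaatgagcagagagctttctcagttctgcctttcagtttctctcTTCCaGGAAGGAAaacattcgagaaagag
Elf1 outer, chr14:79480944-79481243, plus strand: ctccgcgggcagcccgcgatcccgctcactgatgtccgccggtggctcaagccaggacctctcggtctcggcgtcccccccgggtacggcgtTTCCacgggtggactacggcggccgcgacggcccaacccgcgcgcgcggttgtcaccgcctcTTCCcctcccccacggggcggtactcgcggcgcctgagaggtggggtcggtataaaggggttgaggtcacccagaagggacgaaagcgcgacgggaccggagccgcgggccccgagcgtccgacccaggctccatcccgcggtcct
Elf1 inner, chr14:79515424-79515723, plus strand: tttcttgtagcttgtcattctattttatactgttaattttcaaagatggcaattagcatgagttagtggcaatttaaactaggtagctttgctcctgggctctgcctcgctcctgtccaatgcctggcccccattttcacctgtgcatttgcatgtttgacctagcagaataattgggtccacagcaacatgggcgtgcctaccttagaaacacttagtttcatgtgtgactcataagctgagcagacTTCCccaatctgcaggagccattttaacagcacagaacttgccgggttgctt
Erg outer, chr16:95586544-95586843, minus strand: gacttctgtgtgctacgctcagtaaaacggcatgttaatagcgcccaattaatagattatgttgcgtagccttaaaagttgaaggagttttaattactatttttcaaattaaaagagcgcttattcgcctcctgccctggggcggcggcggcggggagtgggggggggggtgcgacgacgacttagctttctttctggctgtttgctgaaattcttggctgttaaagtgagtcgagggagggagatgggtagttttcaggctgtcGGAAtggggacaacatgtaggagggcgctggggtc

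The Etv6 promoter held 6 GGAA cores counted on both strands, the Gabpa promoter 5 and the Trp53 promoter 4. The outer Elf1 promoter held 2, and the inner Elf1 and outer Erg promoters held 1 each. Of those not printed, the Ets2 promoter, at a marked start, also held 1. The Erg promoters at 56.2 and 127 kb, without a peak within 1000 bp, held 4 and 2. A GGAA core stood in 96.0% of all 32851 RefSeq promoters of this length, with a median of 3 per promoter, so its presence is not particular to these genes. The longer element CCGGAAGT, typical of ETS1 and GABPA sites, was in none of the 9 promoters found for these genes, against 3.89% of all promoters. GAGGAAGT, typical of PU.1 sites, was found once, in the Gabpa promoter, against 3.2% of all promoters. The erythroid GATA element AGATAA was found in 1 of the 9 promoters, the innermost of Erg, against 11.2% of all. The KLF box CACCC was in 7 of the 9, against 57.5% of all, and the CCAAT box in 4, against 37.4%. TATAAA was in 4 of the 9, among them the outer Elf1 promoter at position -46 from the start, against 13.6%. A match is a description of the letters and not evidence of binding.

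CpG content differed widely. The outer Elf1 promoter held 43 CpG dinucleotides, more than 97.4% of all promoters, and Ets2 held 30, more than 88.3%. Gabpa followed with 22, Etv6 with 17 and Trp53 with 10. The outer promoter of Erg held 16, more than 67.0% of promoters, and had no peak in either replicate. The inner promoter of Elf1 held 3, more than 23.3%, and lay under a peak of both. The Erg promoters at 56.2 and 127 kb held 2 and 4, more than 14.1% and 31.4%, and had no peak within 1000 bp. Whether CpG content goes with the mark was not tested. The median over all promoters was 7.

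Every one of the 9 genes had at least 1 region of both replicates over its span and upstream flank, a share of 100% with a 95% exact binomial interval over genes of 66.4 to 100%, against a background of 63.6% of all protein-coding genes. At the 5' end itself 5 of 9 were marked, 55.6% with an interval of 21.2 to 86.3%, against a background of 47.1%. The marked genes were Trp53, Ets2, Elf1, Gabpa and Etv6. The other 4, Spi1, Fli1, Erg and Ets1, had no peak of both replicates at the outer 5' end but had regions elsewhere, 44.4% with an interval of 13.7 to 78.8%, against a background of 16.6%. The share marked at the 5' end is near the background. The windows were long, with a median of 121318 bp against 37264 bp over all genes, which gives more room for a peak. The part of window length in these shares was not tested. Elsewhere means away from the outer RefSeq end, and not away from every start. On the older build mm9, Spi1, Fli1 and Ets1 had a peak of an older deposited set within 1000 bp of a GENCODE M1 transcript start. Erg had none. The share of all genes with such a peak is not given. How far the 44.4% follows from the use of the outer RefSeq end was not tested.

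**Figure D1:**
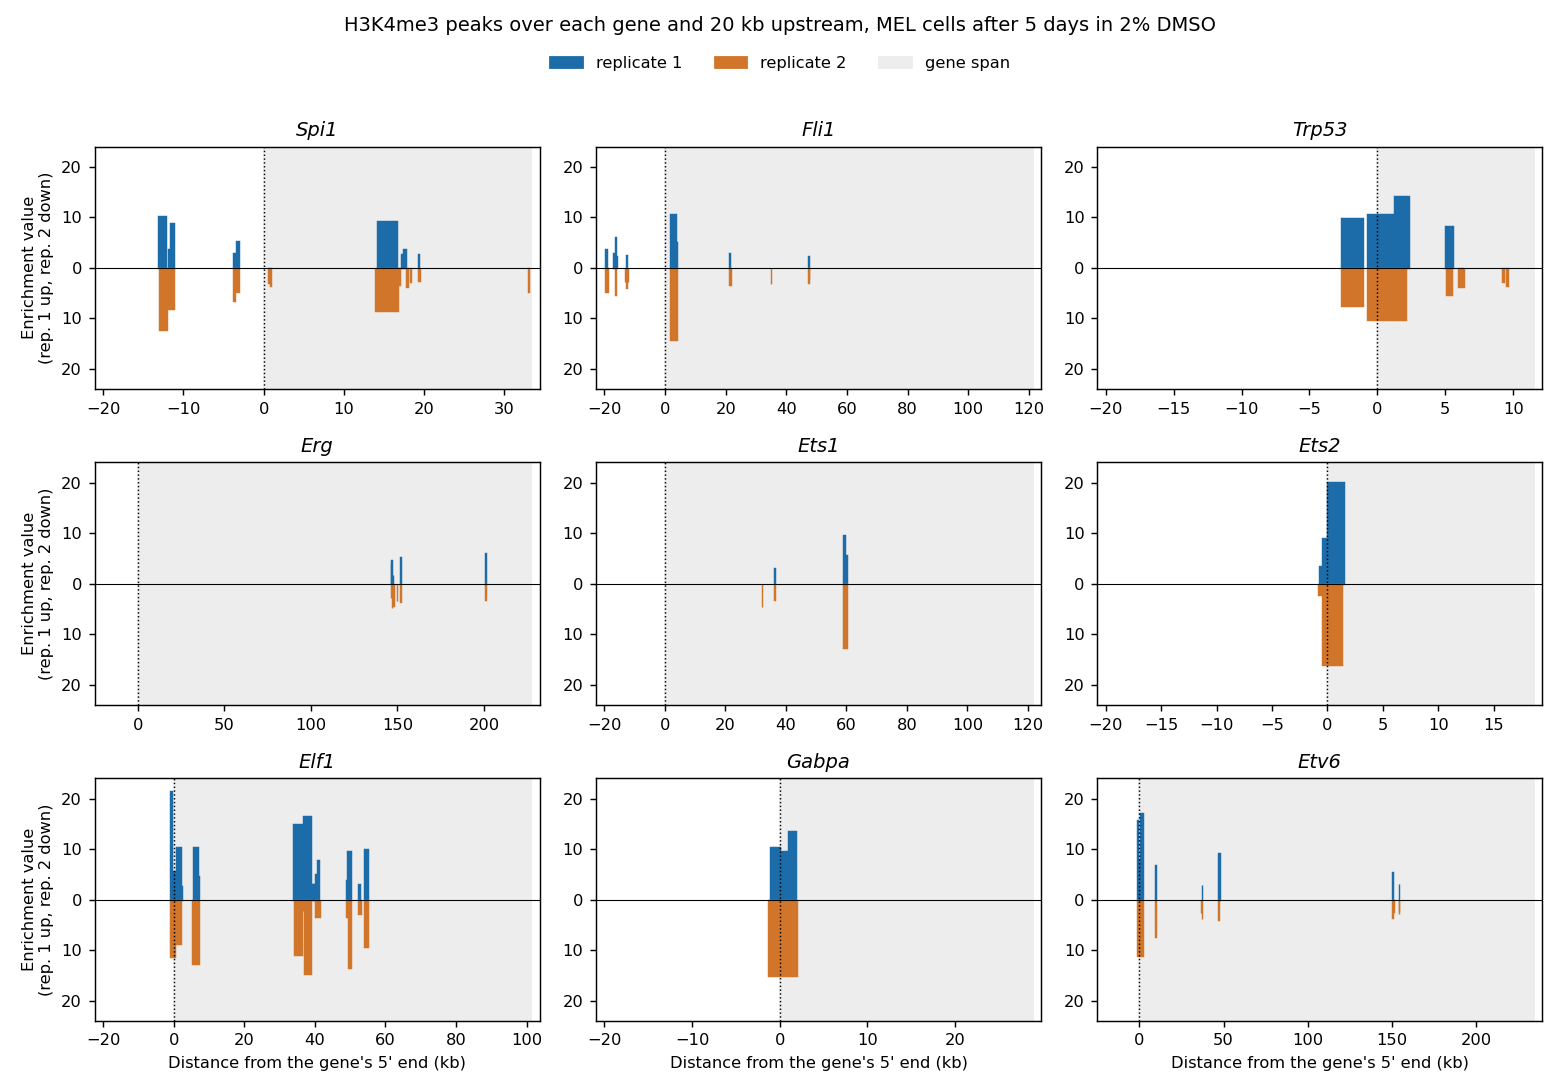
H3K4me3 peaks of replicate 1 (upward bars) and replicate 2 (downward bars) over each of the 9 genes and 20 kb upstream, drawn against the distance from the gene's 5' end in kb, with bar height giving the deposited enrichment value. Trp53, Ets2, Gabpa and Etv6 have their strongest peaks at or near the dotted 5' end, and Elf1 has strong peaks both there and from 33.9 kb inside. The strongest peaks of Fli1 and Ets1 lie inside the gene, those of Spi1 lie upstream at the Slc39a13 start with a second site inside, and Erg has low peaks that start 146 kb inside.

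Among the loci hit by the virus, Spi1 (PU.1, NCBI Gene 20375) spans chr2:91082374-91115759 on the plus strand. Its main region over the gene body lay 13.9 to 16.8 kb inside, at chr2:91096300-91099146, with enrichment values of 9.25 in replicate 1 and 8.47 in replicate 2, a mean of 8.86 ± 0.554. Around the outer 5' end replicate 1 had no peak, and replicate 2 had 2 short ones of 3.11 and 3.56. The mark thus stood well inside the RefSeq span and not at its outer end.

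On the older build mm9, where transcripts of GENCODE M1 could be used, the outer starts of the gene, there named Sfpi1, at 0 and 18 bp had no peak of the older deposited set. The starts of Sfpi1-001 and Sfpi1-002 at 13.7 and 14.4 kb had a peak within 1000 bp, at chr2:90936490-90939025 of mm9 with a value of 2.87 in that set. The start of Sfpi1-002 lay under the peak. Values of the older set are on their own scale and are not set against those of mm10.

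Upstream of Spi1, pairs of regions lay about the start of Slc39a13, a zinc transporter gene on the other strand, and nearer to Spi1 itself. Positions upstream of a 5' end are given as negative distances. The region at -13.2 to -12.1 kb was the strongest in the Spi1 window, with 10.2 and 12.4, but it stands at the shared start of Slc39a13 and Gm39874 and is not evidence about Spi1. At -3.83 to -3.55 kb the values were 3.01 and 6.52, one of the widest disagreements between replicates among these genes. At -3.51 to -3.02 kb they were 5.38 and 4.82. With 9 and 12 peaks the Spi1 window held more than 98.4% of genes, and its widest domain, in which neighbouring peaks no more than 1000 bp apart are joined, measured 3520 and 5564 bp, wider than in 96.0% of genes. The mean domain of 4542 bp was 2825 bp in the pooled set and 2667 bp with no gap joined. The mean of 10.5 peaks was 8 with 5 kb upstream, which leaves out the Slc39a13 start, and 8 in the pooled set.

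Fli1 (NCBI Gene 14247), an ETS activator of megakaryocyte genes, spans chr9:32422204-32543432 on the minus strand. Its strongest region ran from 1485 to 4089 bp inside the 5' end, at chr9:32539343-32541947, with values of 10.7 and 14.2, a mean of 12.4 ± 2.52. It lay just beyond the 1000 bp limit, so the gene counted as not marked. At 2000 bp it counted as marked.

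On mm9 the single GENCODE M1 start of Fli1, at the end of a span of chr9:32229793-32348974, lay under an older-set peak of value 5.69. A cluster of weaker regions stood upstream of Fli1, with values of 6.18 and 5.41 at -16.6 to -16.2 kb, 3.76 and 4.81 at -19.8 to -18.9 kb, and 2.60 and 4.09 at -13.0 to -12.6 kb. The peak of 2.60 in replicate 1 had a −log10 q of only 0.895, a q above 0.05. Inside the gene only weak regions followed, 2.85 and 3.49 at 21.2 kb and 2.40 and 2.99 at 47.0 kb. The Fli1 window held 9 and 10 peaks, more than 97.6% of genes. Its mean of 9.5 peaks was 4.5 with 5 kb upstream and 6 at a −log10 q of at least 2. Its strongest value exceeded that of only 39.2% of genes with a region of both replicates.

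Trp53 (NCBI Gene 22059) encodes p53, the tumour suppressor that halts the cycle or kills cells after DNA damage, and spans chr11:69580348-69591873 on the plus strand. A region from -760 to 2302 bp covered its start, with 14.3 and 10.4, a mean of 12.3 ± 2.77. Within 1000 bp of the 5' end the values were 10.6 and 10.4, a mean of 10.5 ± 0.136, above only 21.8% of marked genes. Within this limit the mark was there in both replicates at a level in the lower part of the marked genes. Replicate 1 split the region, and its peak of 14.3 began at 1217 bp, outside the limit. In the pooled set a single peak from -759 to 2268 bp covered the start, with 15.2.

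The 5' end of Wrap53, a gene with a role in telomerase and Cajal bodies, lies 97 bp away on the opposite strand, so the mark cannot be assigned to either gene. A second Wrap53-side region at -2.69 to -1.07 kb had 9.87 and 7.62, and one inside Trp53 at 4.96 to 5.55 kb had 8.30 and 5.47. Peaks covered 17.2% of the Trp53 window on average, more than in 95.8% of genes, and the widest domain measured 4971 and 4792 bp, wider than in 97.2% of genes. The mean of 4882 bp was 2371 bp with no gap joined and 10275 bp with gaps of 3000 bp joined. Peaks do not show whether the Trp53 product is made or intact.

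**Figure D2:**
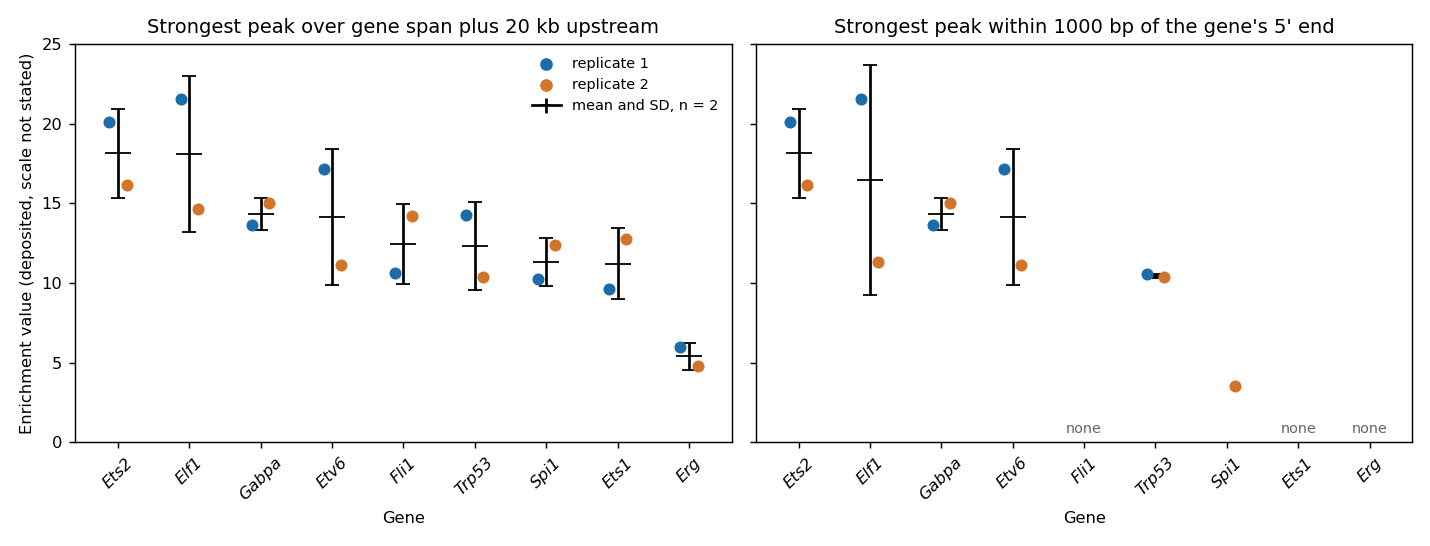
Highest deposited enrichment value per gene in replicate 1 and replicate 2, with the mean and SD (n = 2), over the span plus 20 kb upstream (left) and within 1000 bp of the 5' end (right). Ets2 and Elf1 have the highest means, 18.1 each, and Erg the lowest, 5.40, while Fli1, Ets1 and Erg have no peak at the outer 5' end and Spi1 has one in replicate 2 alone.

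Of the close relatives of Fli1, Erg (NCBI Gene 13876), a stem cell and endothelial regulator, spans chr16:95359169-95586600 on the minus strand and had the weakest mark of the 9. Its strongest values were 6.01 and 4.79, a mean of 5.40 ± 0.866. Of genes with a region of both replicates only 6.71% had a lower strongest value. The 4 regions of both replicates lay between 146 and 152 kb and at 200 kb inside the gene, with 4.78 and 4.79, 1.80 and 4.36, 5.22 and 3.62, and 6.01 and 3.15. The peak of 1.80 in replicate 1 had a −log10 q of only 0.675, a q above 0.05. None lay within 1000 bp of its 3 RefSeq promoters, which start at 0.007, 56.2 and 127 kb. The older set, which holds 15810 peaks in all and so fewer than either replicate, had no peak over the Erg window at all. The Erg window had 5 and 6 peaks, more than 86.1% of genes, in a window longer than that of 96.2% of genes.

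Ets1 (NCBI Gene 23871), best known in lymphocytes, spans chr9:32636241-32757820 on the plus strand. Its main region lay 58.9 to 60.3 kb inside, at chr9:32695101-32696530, with 9.64 and 12.8, a mean of 11.2 ± 2.22, and the other was weak, at 3.18 and 3.14. No peak of either replicate stood at the outer 5' end. On mm9 the starts of 3 GENCODE M1 transcripts at 59.8 kb lay under an older-set peak of value 3.68, and the outer start had none.

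Ets2 (NCBI Gene 23872), a target of Ras and MAP kinase signalling, spans chr16:95702407-95721049 on the plus strand and had the highest mean at its 5' end. A region from -515 to 1506 bp had 20.1 and 16.2, a mean of 18.1 ± 2.78, above 89.8% of marked genes. The region next to it at -807 to -571 bp, shared with Gm31989, was weak, at 3.46 and 2.23. The rest of the gene had no region of both replicates.

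The related genes stand in head-to-head pairs or close by. Fli1 and Ets1 point away from each other across 92.8 kb, with 5 regions of both replicates among 14 between them, the highest at 7.21 and 5.41. Erg and Ets2 are likewise divergent across 116 kb, with 4 of 6 regions seen in both replicates, among them those at the Ets2 start. Ets2 was strong and Erg weak, while the strongest means of Fli1 and Ets1, 12.4 ± 2.52 and 11.2 ± 2.22, differ by less than their SD.

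Elf1 (NCBI Gene 13709), an ETS factor of blood and endothelial genes, spans chr14:79481174-79582491 on the plus strand and had 17 and 11 peaks. Its mean of 14 was the highest of the 9 and above that of 99.5% of genes, though in replicate 2 Spi1 had more, with 12, and in the pooled set Fli1 had more, with 11. At the outer 5' end the values were 21.5 and 11.3, a mean of 16.4 ± 7.22, the largest SD among these genes. Wbp4, a splicing factor gene, overlaps the start on the other strand. The base pairs covered were 14528 and 14132, more than in 99.9% of genes, so coverage was steady where height was not.

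A second, wide block stood over the inner Elf1 promoter at 34.5 kb, with 14.9 and 10.9 at the promoter and 16.6 and 14.6 at 36.5 to 39.0 kb. It formed the widest domain of the gene, 7239 and 5010 bp, wider than in 99.1% of genes, and with no gap joined the mean of 6124 bp was 2408 bp. Further regions at 5.30 to 7.25 kb had 10.4 and 12.8, at 49.2 to 50.3 kb 9.62 and 13.6, and at 53.8 to 55.1 kb 9.94 and 9.34. Both the outer and the inner start of Elf1 lay under older-set peaks on mm9, of 4.74 and 5.62.

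Gabpa (NCBI Gene 14390), the DNA-binding subunit of GABP that controls nuclear genes for mitochondria, spans chr16:84834891-84863783 on the plus strand and had a single region, from -1367 to 1958 bp. Its values were 13.6 and 15.0, a mean of 14.3 ± 1.01. The start overlaps that of Atp5j, a subunit gene of mitochondrial ATP synthase on the other strand, so the region belongs to both. Replicate 1 split it into 3 peaks and replicate 2 called 1, and no pair of these peaks overlapped by 50% of both.

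Etv6 (NCBI Gene 14011, also TEL), an ETS repressor needed for adult blood stem cells, spans chr6:134035700-134270158 on the plus strand. A region from -1498 to 2030 bp had 17.2 and 11.1, a mean of 14.2 ± 4.28, with the predicted gene Gm46977 387 bp away. Inside the gene the next regions were 6.79 and 7.41 at 9.10 kb, 9.27 and 3.98 at 46.7 kb, and 5.49 and 3.71 at 150 kb near Gm52920. The start of Etv6 was therefore the strongest site in both replicates.

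**Figure D3:**
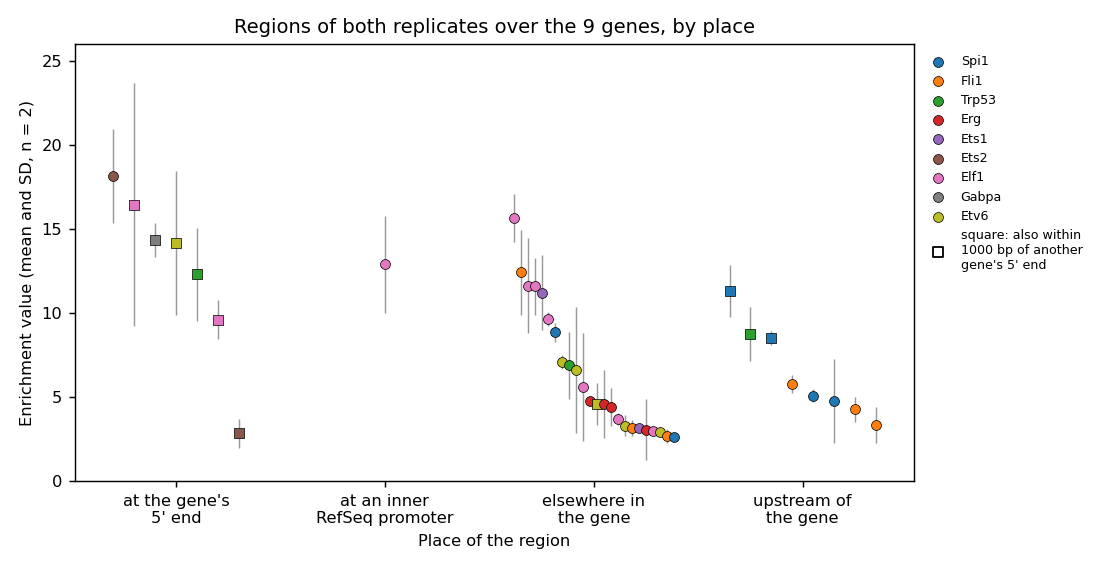
Regions of both replicates over the 9 genes by place, with the mean enrichment value as the point and the SD (n = 2) as the line, coloured by gene. The 7 regions at an own 5' end have a median of 14.2, the 24 elsewhere inside a gene a median of 4.69 and the 8 upstream a median of 5.45.

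Across the 9 genes 65 regions were found, of which 40 had both replicates, 7 had replicate 1 alone and 18 had replicate 2 alone. That is 61.5% with both, against 67.7% of the 50676 regions of the genome. The 25 regions of a single replicate were weak, with values of 2.22 to 4.78 and a median of 3.08. All 40 regions of both replicates overlapped the authors' set of replicated peaks, and so did 3 of the others. That set was derived from the same replicates and their pool, so this overlap is not independent support. The 40 had a median value of 6.21 and a median width of 904 bp, against 7.43 and 796 bp over the 34300 such regions of the genome.

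By place, the 7 regions at an own 5' end, all in the 5 marked genes, had a median of 14.2, a range of 2.84 to 18.1 and a median width of 2022 bp. The 24 elsewhere inside the gene had a median of 4.69, a range of 2.62 to 15.6 and a width of 776 bp. The 8 upstream had a median of 5.45 and a width of 695 bp. The single region at an inner RefSeq promoter, in Elf1, had 12.9. Of the 40, 10 were also within 1000 bp of the 5' end of another gene.

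The replicates differed by over 2-fold in 4 of the 40 regions, or 10%, against 3.62% of the regions of the genome. The 4 were in Spi1 and Erg, lower in replicate 1 at ratios of 0.461 and 0.412, and in Elf1 and Etv6, higher in replicate 1 at 2.36 and 2.33. On the log2 scale the ratio (replicate 1 over replicate 2) centred on a median of 0.14, with SD 0.55, against -0.07 and 0.47 over the genome. Spearman's rho across the 40 regions was 0.83 and Pearson's r of the log2 values 0.83, as a description over regions that share genes and libraries.

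**Figure D4:**
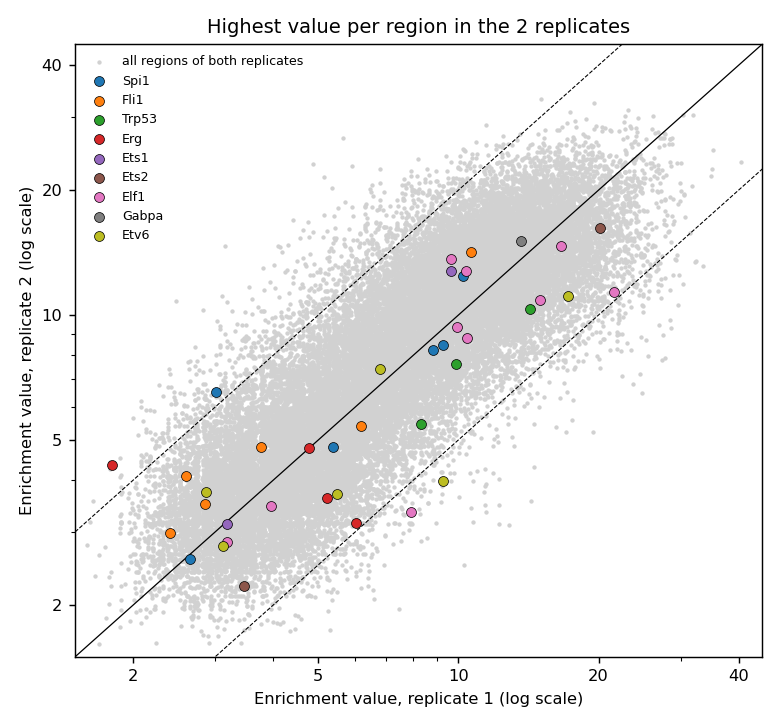
Enrichment value per region in replicate 1 (horizontal, log scale) and replicate 2 (vertical, log scale) for the regions of the 9 genes (coloured) and all other regions of both replicates (grey), with the solid line at equality and the dashed lines at 2-fold. Of the 40 coloured regions, 4 lie outside the dashed lines.

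Per gene, the 9 had a median of 5.5 peaks against 2 over all genes, peaks over 5.37% of the window against 2.56%, and a widest domain of 3139 bp against 1469 bp. Their strongest value had a median of 12.4, against 13.4 over the 13807 genes with a peak in both replicates. For the 5 marked genes the median at the 5' end was 14.3, against 13.2 over the 10133 marked genes. The medians of peak number, share covered and domain over all genes include genes with 0 peaks and come from shorter windows, while the medians of enrichment value include only genes with peaks. The median enrichment value was thus lower over the window than over all genes in the mean of the replicates. It was 13.6 in replicate 1 alone and 12.8 in replicate 2 alone, for which no median over all genes is given. At the 5' end it was higher than over all marked genes, but over only 5 genes that ranged from 10.5 to 18.1.

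The strongest value of a gene is the highest peak of each replicate over the window, which need not be the same site in both. For Elf1 it was the outer 5' end in replicate 1 and 36.9 to 39.0 kb inside in replicate 2, and for Erg 200 kb and 147 kb inside, so the means and SDs of these genes belong to no single site. The highest mean of a single Elf1 region was 16.4 ± 7.22. In the order of mean strongest value, Ets2 at 18.1 ± 2.78 and Elf1 at 18.1 ± 4.88 came first, then Gabpa at 14.3 ± 1.01, Etv6 at 14.2 ± 4.28, Fli1 at 12.4 ± 2.52, Trp53 at 12.3 ± 2.77, Spi1 at 11.3 ± 1.52, Ets1 at 11.2 ± 2.22 and Erg at 5.40 ± 0.866. The Spi1 value is that of the Slc39a13 start, and over the gene span alone Spi1 had 8.86 and stood below Ets1. In the pooled set the order was another, with Elf1 at 23.4, Trp53 at 15.2, Ets2 at 13.4 and Etv6 at 9.97. Neighbours in the first order from Ets2 down to Ets1 overlap within 1 SD. Erg is apart from Ets1, since its higher replicate of 6.01 lies below the lower replicate of Ets1 of 9.64. The same libraries gave all values, so the order carries the error of 2 replicates only.

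Of the other 18 ETS genes, 9 were marked at the 5' end, 50% against 47.1% of all genes. The strongest were Elf2 at 24.1 and 19.5, Erf at 17.3 and 19.1, Elk4 at 20.6 and 12.9, Etv3 at 17.7 and 12.5, Elf4 at 9.78 and 15.1, and Elk3 at 10.8 and 13.4. Elk3 and Elk4 are serum response cofactors and Erf and Etv3 are repressors. Among the unmarked were Elf3 and Ehf, which act in epithelia, and Elf5 and Etv1. Elsewhere in their windows Ehf had peaks of 8.00 and 6.50 and Etv1 of 4.98 and 5.93. The marked members had a median of 12.4, against 13.2 over all marked genes.

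Of 28 genes of the p53 network, 21 were marked, 75% against 47.1% of all genes. Cdkn2a, which encodes the p53-stabilising Arf protein, had 23.0 and 19.4, and Mdm2, which degrades p53, had 20.7 and 17.5. The phosphatase gene Ppm1d had 15.6 and 22.4, the ribonucleotide reductase subunit gene Rrm2b 15.5 and 19.7, Zmat3 13.1 and 20.9, and Sesn2 13.8 and 20.0. The cell-cycle inhibitor gene Cdkn1a was not marked at its outer 5' end but had peaks of 10.7 and 19.3 elsewhere in its window, and so did Mdm4, with 19.9 and 17.8. Eda2r had no peak in either replicate, and Fas had weak ones elsewhere, of 4.13 and 3.15.

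Of the 20 genes in the list of PU.1 myeloid targets, 7 were marked, 35% against 47.1% of all genes. These included the pan-leukocyte phosphatase gene Ptprc at 24.7 and 20.2, the cytokine receptor gene Csf2rb at 19.4 and 12.9, the kinase gene Btk at 15.3 and 14.6, Laptm5 at a mean of 11.8 ± 0.256, Itgb2 at 9.58 and 11.5, and Fcgr1 at 3.58 and 5.12. The macrophage receptor gene Csf1r was unmarked, as were Cd14, Cd68 and Csf2ra, of which Cd14 had peaks of 9.73 and 15.8, Cd68 of 10.4 and 11.9 and Csf2ra of 4.18 and 3.57 elsewhere in their windows.

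Of the 12 genes in the list of Fli1 megakaryocyte targets, 6 were marked, 50% against 47.1% of all genes. Their values had a median of 4.81, against 13.2 over all marked genes. The platelet chemokine gene Pf4 was the strongest at 15.9 and 17.5. Integrin gene Itga2b had 5.47 and 4.98, Tek 5.43 and 4.51, the platelet receptor genes Gp9 5.43 and 3.85 and Gp1ba 4.98 and 4.12, and Itgb3 3.14 and 2.83. Gp1bb, Gp6 and Ppbp were among the unmarked, and of these Gp1bb had peaks of 13.3 and 21.3 and Ppbp of 4.98 and 4.16 elsewhere in their windows. The older set on mm9 holds 15810 peaks in all, fewer than either replicate, and with it 1 of the 12 was marked. The share of all genes marked in that set is not given.

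Of 17 genes for ETS cofactors and partners of Friend virus disease, 13 were marked, 76.5% against 47.1% of all genes. Hdac3 had 18.5 and 27.4, the acetyltransferase genes Ep300 22.4 and 16.8 and Crebbp 10.2 and 19.6, the corepressor gene Ncor1 15.2 and 19.0, the erythroid factor gene Tal1 19.7 and 13.5, and Cbfb 13.7 and 13.1. Epor, the receptor that the viral envelope protein of the spleen focus-forming virus activates, had 8.27 and 10.4, and Mst1r, the gene of the Fv2 susceptibility locus, had 2.20 and 4.08 at the outer 5' end and 19.6 and 13.9 elsewhere in its window. These last 2 were named after their values were seen. Gabpb1, the partner subunit of Gabpa, Gata1, Jun and Kit were unmarked at the outer 5' end, though Gata1 had peaks of 21.1 and 15.0, Gabpb1 of 15.8 and 13.5 and Kit of 6.79 and 10.6 elsewhere in their windows.

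**Figure D5:**
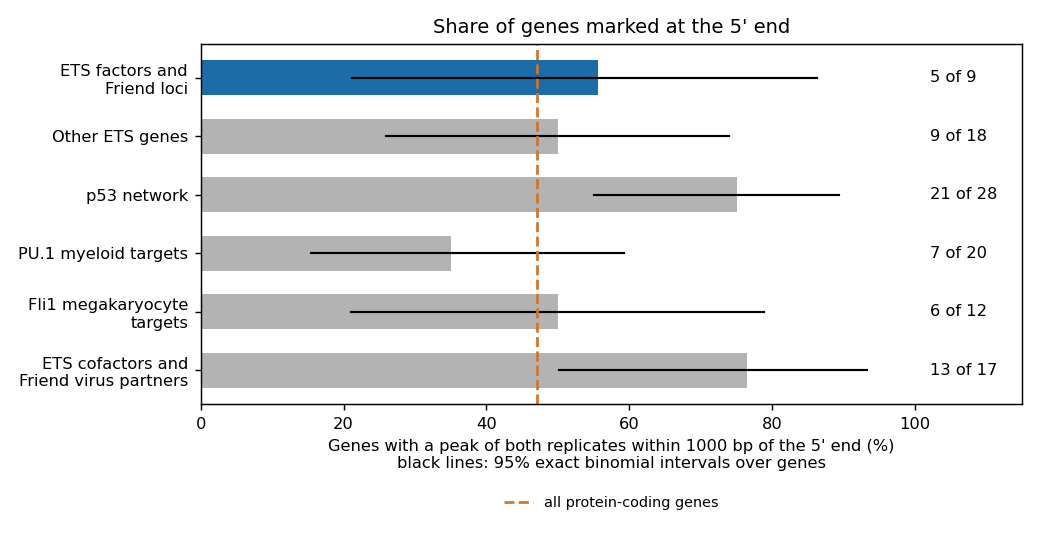
Share of genes with a peak of both replicates within 1000 bp of the 5' end, in percent, for the 9 genes (blue) and 5 lists around them (grey), with 95% exact binomial intervals over genes (black lines) and the share over all protein-coding genes, 47.1% (dashed line). The shares run from 35% for PU.1 myeloid targets to 76.5% for cofactors and Friend virus partners, and the interval of the 9 genes spans the dashed line.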

How the data were processed

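H3K4me3 ChIP-seq peaks of 2 biological replicates of MEL cells were analysed, 1 group, as called peaks deposited by the authors. Per the file headers and deposited notes, each replicate's mm10 set derives from its own alignments and 2 further shared files, the pooled set from the alignments of both together, and the replicated set from these 3. An older mm9 set has no stated derivation. For the aligner, caller and threshold, the names are not given in the sources used here. Per peak, the authors deposited a signal value, called the enrichment value, and a q-value as −log10. Depth is unknown, and the precision is that of 2 replicates. Intervals cover counting error only, and genes are not replicates.

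The genes and lists were chosen with earlier results of these data known. RefSeq (GRCm38.p6) gave 1 span per gene. Strand came from the RefSeq promoter table for 17492 genes and from GENCODE M1, by symbol for 3649 and by synonym for 394, which left 352 of 21887 protein-coding genes out. For Spi1, Fli1 and Ets1 it came from GENCODE M1. No exon or intron annotation was used on mm10. Marked means a peak of each replicate within 1000 bp of the 5' end, with an overlap of at least 1 bp. A percentile is the share of genes with a lower value. All 9 genes are named. Of each list the 6 marked members with the highest means and the alphabetically first 4 unmarked ones are named, except 1 gene that is not reported here. The planned comparison of protein sequences was not made. No test was run, since there is 1 group. Alternatives were windows of 500 and 2000 bp, −log10 q minima of 2 and 5, other peak sets, upstream lengths of 5 kb and none, gaps of 0 and 3000 bp, a 50% reciprocal overlap and each replicate alone. Use of any RefSeq promoter, any GENCODE M1 transcript start, and a peak covering the 5' end itself were added after seeing the data. Motifs were searched on both strands as GGAA, with its longer forms CCGGAAGT and GAGGAAGT (each holding a GGAA), the GATA element AGATAA, the KLF box CACCC, the CCAAT box and the TATA box TATAAA. The peak scan was tested on simulated data. Python 3.11.15, numpy 2.4.6, pandas 2.3.3, scipy 1.17.1 and matplotlib 3.10.9 were used.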

Additional observations from a re-analysis of the deposited data

How the results depend on the processing

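The count of 9 genes with a region of both replicates was the same in every alternative run except a 50% reciprocal overlap, which gave 8, without Gabpa. The count of 5 marked genes stayed at 5 or 6 under all alternatives but one: it was 6 with a window of 2000 bp or the older mm9 set at GENCODE M1 gene starts, both with Fli1 added, and 6 without replicate 1 or with the pooled set, both with Spi1 added. With any GENCODE M1 transcript start and the older set it was 8, all but Erg. No share of all genes under that rule is given, so this count has no background to be set against. The count of marked Fli1 megakaryocyte targets was 1 with the older set, against 6, and the cause was not tested. That set holds 15810 peaks, and no share of all genes marked in it is given. The median strongest value of 12.4 was 12.8 to 13.6 with 1 replicate left out. The median widest domain of 3139 bp was 2952 to 3326 bp with 1 replicate left out, 2825 bp with the pooled set, 2314 bp with no gap joined and 3860 bp with gaps of 3000 bp joined, the last 2 following from how domains are built. The strongest value of Spi1, 11.3 ± 1.52, was 8.86 over the gene span alone, where the Slc39a13 start is left out. Peak numbers were within 1 SD in 7 of 9 genes at a −log10 q of at least 2 and in 7 with 5 kb upstream, with Fli1 at 6 and 4.5 against 9.5. The order of the genes by strongest value changed with the pooled set and, for Spi1, with the gene span alone. No paired analysis was possible because there is 1 group. Peak lists without read counts do not show how far missing peaks follow from depth.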
